A study of Mus musculus with 5 samples.

Results

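Dbi and 5 genes related to it by domain or function were followed on the arrays of sorted cortical cells: Acbd3, Acbd4, Acbd5 and Acbd6, which encode other proteins with an acyl-CoA-binding domain, and Tspo, which encodes the mitochondrial receptor of the Dbi peptide. All probes that the platform annotation assigns to these 6 genes were taken, which gave 15 probes of the 45281 on the array: 3 each for Dbi, Acbd4, Acbd5 and Tspo, 2 for Acbd6 and 1 for Acbd3. The 6 are among 19057 named genes on the array. They were chosen by the measured KO and WT intensities of Dbi, which was among the probes with the largest values in KO, and the others were added as its relatives. The KO and WT values of all 6 genes are therefore given as a description, without a test.

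Total RNA came from parvalbumin-positive cells sorted from the cerebral cortex of C57BL/6J mice that carry the PV-GFP reporter, which both groups share. The 3 WT samples (replicates 1, 2 and 3) were Clock+/+, from mice 61, 64 and 64 days old. The 2 KO samples (replicates 1 and 3) were Clock-/-, from mice 61 and 60 days old, and lack the circadian transcription factor CLOCK. All 5 were taken at zeitgeber time 16 h, counted from lights-on, and each was read on 1 single-colour Illumina bead array. The labels do not say whether a sample is 1 animal. By age, WT replicate 1 came from other mice than WT replicates 2 and 3, and the 2 KO samples came from different mice. How much of the spread between samples is technical is not known, and the small number of arrays limits precision.

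Dbi encodes a small cytosolic protein, also called acyl-CoA-binding protein, that binds long-chain acyl-CoA esters and carries them between the enzymes of lipid metabolism. It is secreted as well, and the peptides cut from it, the endozepines, act at the benzodiazepine site of GABA-A receptors and at TSPO in the outer mitochondrial membrane. In the brain Dbi is best known from glia, above all astrocytes and ependymal cells. ACBD3 is a Golgi protein that binds giantin and recruits a phosphatidylinositol kinase, and it was also described as a partner of TSPO and of protein kinase A. ACBD4 and ACBD5 sit in the peroxisome membrane and tether it to the endoplasmic reticulum, and ACBD6 works with N-myristoyltransferases.

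Dbi was the 1 gene of the 6 with a probe that stood above background on more than 1 array, and only 1 of its 3 probes did so. A probe was called detected on an array when its deposited detection p, which sets it against the background of the same array, was under 0.05. Of the 75 readings of the 15 probes on 5 arrays 6 were detected (8.0%), against 6.09% of the readings of all probes. Of these, 5 came from the Dbi probe ILMN_1215469 and 1 from an Acbd5 probe. On at least 2 of the 5 arrays 1 of 15 member probes was detected (6.67%), a share near the 7.39% of all 45281 probes. In sorted bulk RNA, fewer cells that express a gene and less RNA per cell cannot be told apart.

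**Figure D1:**
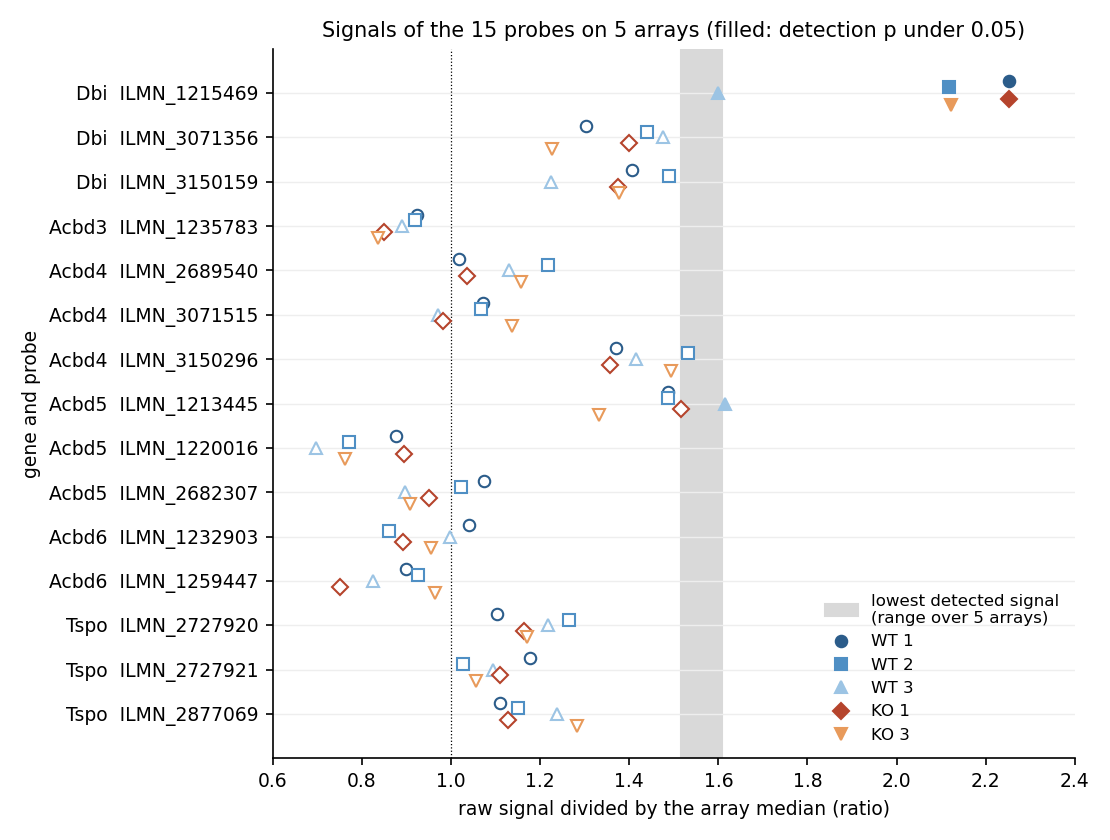
Raw signal of each of the 15 probes divided by the median signal of its array (x axis, ratio, dotted line at 1), for 3 WT arrays (blue) and 2 KO arrays (red and orange). Filled symbols have a detection p under 0.05, and the grey band spans the lowest detected signal of the 5 arrays (1.52 to 1.61 times the median); the Dbi probe ILMN_1215469 lies at 2.12 to 2.25 on 4 arrays and at 1.60 on WT replicate 3.

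The detected Dbi probe read 2526 on WT replicate 1, 3573 on WT replicate 2 and 3181.5 on WT replicate 3, and 4383 on KO replicate 1 and 3971 on KO replicate 3, as raw intensity. Its detection p was 0 on WT replicate 1 and on both KO arrays, 0.00107 on WT replicate 2 and 0.0459 on WT replicate 3. It was thus far above background on 4 arrays and barely above it on WT replicate 3. The raw numbers cannot be compared directly, since the median raw signal was 1121 on WT replicate 1 and 1687 to 1991 on the other arrays.

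Divided by the array median, the same Dbi signals were 2.25, 2.12 and 1.60 in WT and 2.25 and 2.12 in KO. On this scale the KO arrays matched WT replicates 1 and 2, and the array that stood apart was WT replicate 3. The WT mean was 1.99 ± 0.35 (SD, n = 3), and the KO mean 2.19 ± 0.092 (SD, n = 2). Divided by the lowest detected signal of each array, the values were 1.48, 1.32 and 1.01 in WT and 1.46 and 1.40 in KO, and the groups overlapped again.

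Ranks gave another order. The Dbi probe was brighter than 98.7%, 99.2% and 94.4% of all probes on WT replicates 1, 2 and 3, and than 99.6% and 99.7% on KO replicates 1 and 3. In numbers of probes, 568, 376 and 2551 were brighter on the WT arrays and 191 and 151 on the KO arrays. By rank, both KO arrays lay above all 3 WT arrays. Quantile normalization, which gives each array the same distribution, keeps these ranks.

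After background correction from the detection p-values and quantile normalization, the log2 intensities of Dbi were 7.98, 8.37 and 7.19 in WT and 9.05 and 9.24 in KO. The WT mean was 7.84 ± 0.60 (SD, n = 3) and the KO mean 9.14 ± 0.13 (SD, n = 2), a difference of 1.30, or 2.46-fold higher in KO. KO replicate 1 lay 1.20 and KO replicate 3 lay 1.39 above the WT mean, and the groups did not overlap. Across the 3347 probes detected on at least 2 arrays, both KO arrays lay above all WT arrays for 375 probes (11.2%), and 4 probes, Dbi included, had a difference at least as large. As Dbi was chosen with this contrast known, its place among them is no evidence.

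The size of the Dbi difference, and under 1 setting its sign, depended on how the arrays were put on a common scale. The processed intensities that the authors deposited were 1513, 1773.5 and 909.3 in WT (mean 1399 ± 443, SD, n = 3) and 2398 and 2612 in KO (mean 2505 ± 152, SD, n = 2), and on the log2 scale the difference was 0.89. Without background correction but with quantile normalization it was 0.42, and with cyclic loess 0.52, and in each case the lower KO array exceeded the highest WT array. With the raw signal over the array median, a scale added after the data were seen, it was 0.15, with a pooled SD between replicates of 0.22. With background correction and median scaling it was -0.44, with a pooled SD of 0.96 and a median over all tested probes of -0.39. On that scale WT replicate 1 read 9.13, above KO replicate 1 at 7.92 and KO replicate 3 at 7.07. Of the 8 scales compared, the groups were apart on 5 and overlapped on 3.

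**Figure D2:**
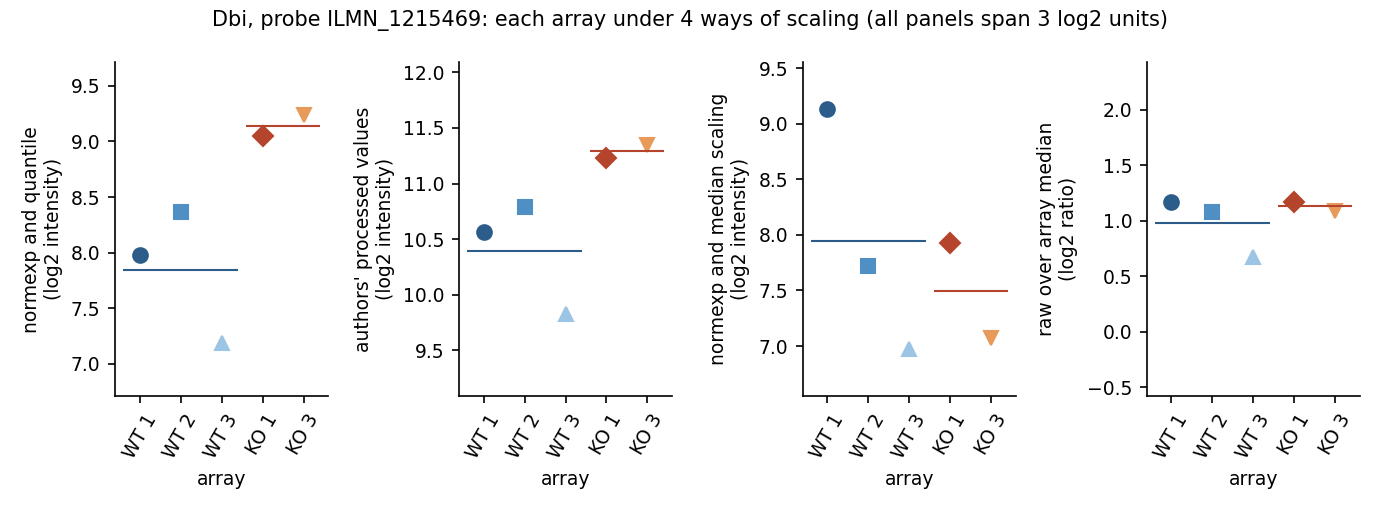
The Dbi probe ILMN_1215469 on each of 5 arrays (x axis) under 4 scales (y axes, log2), all panels spanning the same number of log2 units, with horizontal lines at the group means. Both KO arrays lie above all WT arrays in the 2 panels on the left, and the groups overlap in the 2 on the right.

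Single arrays also moved the value. With the other arrays normalised anew, the difference was 0.84 without WT replicate 1, 1.61 without WT replicate 2, 1.03 without WT replicate 3, 1.47 without KO replicate 1 and 1.25 without KO replicate 3. With the values of all 5 arrays kept and 1 array dropped from the means, it ran from 0.97 without WT replicate 3 to 1.56 without WT replicate 2. All of these were above 0. KO replicate 3 correlated with the other arrays at 0.751 to 0.827 across the tested probes, below the 0.860 to 0.924 among the others, and had the fewest detected probes (1978, against 2685 to 3671). With KO replicate 3 left out and the values kept, the Dbi difference was 1.20.

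**Figure D3:**
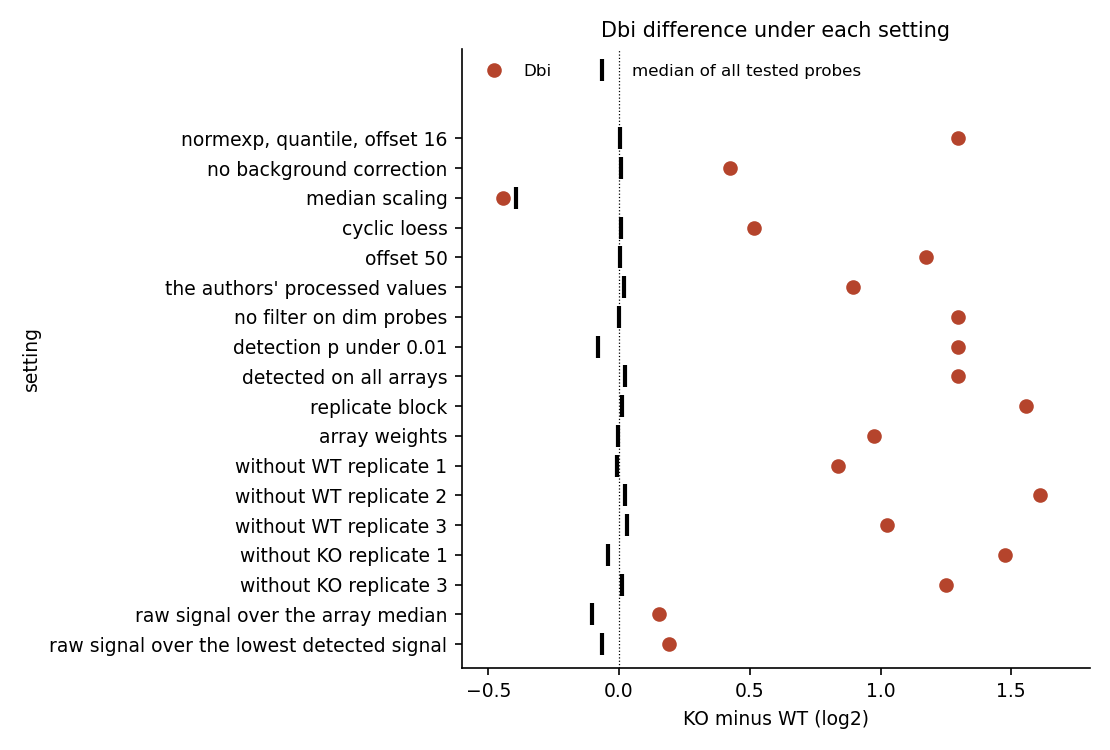
KO minus WT difference of Dbi (red points, x axis, log2) under each setting (y axis), with the median difference of all tested probes as black ticks. Dbi lies between 0.15 and 1.61 except under median scaling, where it is at -0.44 beside a median of -0.39.

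The other 2 Dbi probes were not above background on any array and did not follow the first. ILMN_3071356 read 1.30, 1.44 and 1.48 times the array median in WT and 1.40 and 1.23 in KO, with detection p between 0.0929 and 0.201. It was highest on WT replicate 3, the array on which the detected probe was lowest, and lowest on KO replicate 3. ILMN_3150159 read 1.41, 1.49 and 1.23 in WT and 1.37 and 1.38 in KO, with detection p between 0.0769 and 0.223. Its lowest value was on WT replicate 3, as for the detected probe, but both KO arrays lay inside the WT range. The 3 probes carry the same gene symbol, and a fold is given only for the detected one, since the others have no level above background in either group.

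Among the paralogs, Acbd5, the peroxisomal tether, came nearest to detection. Its probe ILMN_1213445 read 1.49, 1.49 and 1.62 times the array median in WT and 1.52 and 1.33 in KO, with detection p of 0.0598, 0.0855 and 0.0417 in WT and 0.0588 and 0.127 in KO. It passed on WT replicate 3 alone, and the KO and WT arrays overlapped. The other 2 Acbd5 probes lay at 0.70 to 1.07 times the median, with detection p from 0.296 to 0.889.

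Acbd4, the second peroxisomal member, had no detected reading. Its probe of lowest detection p, ILMN_3150296, read 1.37, 1.53 and 1.42 times the array median in WT and 1.36 and 1.49 in KO, with detection p from 0.0588 on KO replicate 3 to 0.131 on KO replicate 1. The 2 KO arrays lay on either side of the middle WT value. The remaining Acbd4 probes lay between 0.97 and 1.22 times the median.

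Acbd3, the Golgi member, read 0.92, 0.92 and 0.89 times the array median in WT and 0.85 and 0.84 in KO on its single probe. Both KO values lay below all 3 WT values, but all 5 were below the array median, with detection p from 0.511 to 0.780, so they carry no measured level. The 2 Acbd6 probes lay at 0.75 to 1.04 times the median, with detection p from 0.333 to 0.826. Acbd3 and Acbd6 gave no reading above background, which does not show that the RNA is absent.

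Tspo, the receptor, was not above background on any array with any of its 3 probes. Their readings ran from 1.03 to 1.28 times the array median, with detection p from 0.165 to 0.400. The probe of lowest detection p, ILMN_2877069, read 1.11, 1.15 and 1.24 in WT and 1.13 and 1.28 in KO. The KO and WT arrays overlapped on all 3 Tspo probes. Of the acyl-CoA-binding genes outside the 6, Acbd7 and the testis paralog Dbil5, together with Eci2, an enoyl-CoA isomerase with an acyl-CoA-binding domain, were detected on no array.

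The genes whose pattern over the 5 arrays was nearest to that of Dbi were found by the root mean square distance between log2 intensities, each probe centred on its own mean. Among 3346 tested probes the nearest were Hnrnph1 (0.41), Hnrnpm (0.41), Ube4a (0.42), Gp9 (0.42) and Olfr1443 (0.42), against a median distance of 0.77. Hnrnph1 and Hnrnpm encode nuclear RNA-binding proteins of splicing, Ube4a a ubiquitin chain assembly factor, Gp9 a platelet glycoprotein and Olfr1443 an olfactory receptor. Hnrnph1 read 7.94, 7.73 and 7.36 in WT and 8.17 and 9.25 in KO. It shared with Dbi the low value on WT replicate 3, and its highest value was on KO replicate 3, as for Dbi. Gp9 read 7.64, 8.02 and 7.33 in WT and 7.99 and 8.42 in KO, with KO replicate 1 inside the WT range. Ube4a, detected on 3 of the 5 arrays only, read 7.18, 7.13 and 6.998 in WT and 7.91 and 7.92 in KO. As these genes were picked by closeness to Dbi, shared high and low values follow from the choice and are no separate evidence. The distances rest on 5 arrays that share 1 normalization, and none of the 5 genes is in the lists of lipid genes described next.

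The comparison of KO with WT across all tested probes addresses the effect of Clock loss on gene expression in the sorted cells. With limma, 0 of 3347 probes passed an adjusted p of 0.05 (0%), with 0.801 as the lowest value reached. Unadjusted, 198 probes (5.92%) had a p under 0.05. The 3 Clock probes were detected on no array, the lowest detection p being 0.338, so they do not check the genotype labels. The core clock loop had 4 tested genes among the 19 on the array. Cry2, a repressor of CLOCK, differed by 0.41 and Nr1d2, a nuclear receptor of the clock, by -0.86, both with a limma adjusted p of 0.801. Unadjusted, these 2 of the 4 had a limma p under 0.05 (0.035 for Cry2 and 0.036 for Nr1d2). Nr1d2 read 8.84, 8.95 and 8.84 in WT, 8.64 on KO replicate 1 and 7.402 on KO replicate 3. Its difference thus came mostly from KO replicate 3. Rora differed by -0.15 and Tef by 0.022.

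The pathways around the 6 genes were sampled thinly. In 9 lists of acyl-CoA and lipid metabolism, of partner proteins and of GABA-A receptor subunits, 29 of 166 genes on the array were tested (17.5%, beside 11.8% of all named genes). By limma 0 of the 29 rose and 0 fell at an adjusted p of 0.05 over all probes. Unadjusted, 1 of the 29 had a limma p under 0.05, beside 198 of all 3347 tested probes (5.92%). Values were above 0 for 19 and below 0 for 10, with a median of 0.052, beside 1694 above and 1653 below and a median of 0.0048 over all tested probes. Median scaling moved nearly every probe down, with 11 above and 3336 below 0, and put 0 of the 29 above 0 and 29 below. With raw signal over the array median 4 of the 29 were above 0, beside 552 of all 3347, with an all-probe median of -0.11. Set against the all-probe median of each of the 8 scales, 11 genes lay above it on all 8, 8 lay below it on all 8 and 10 changed sides. All 8 scales start from the same arrays, and the matching share of all tested probes was not computed. These counts, and the same statement for single genes below, are therefore no measure of stability. Both KO arrays lay above all WT arrays for 4 of the 29 (13.8%, beside 11.2% of all tested probes), namely Acot13, Vdac3, Scd2 and Cers6, and below them for 0 (beside 10.6%). Of these 4, Vdac3 was detected on 1 WT array and both KO arrays, so it passed the filter only through the KO arrays.

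Enzymes that make or break acyl-CoA were measured for few genes. Of 19 genes for acyl-CoA synthesis and fatty acid transport, 2 were tested. Acsl4, a synthetase that prefers arachidonate, had a log2 difference of 0.25, and Acsl3, a synthetase of lipid droplets, one of -0.23. Of 15 thioesterases, 3 were tested. Acot13 read 7.28, 7.28 and 7.29 in WT and 7.92 and 7.44 in KO, a difference of 0.40 (limma adjusted p = 0.801). Acot7, the neuronal thioesterase, differed by -0.13 and Acot8 of peroxisomes by 0.11. Acsl4, Acot8 and Acot13 lay above the median of all tested probes on all 8 scales, and Acsl3 and Acot7 below it. Acsl4 was detected on 1 WT array and both KO arrays, so it was tested only through the KO arrays. Acsl3 was detected on the 3 WT arrays and 1 KO array. Acot8 was detected on 1 WT array and 1 KO array only, so its difference rests mostly on readings not above background.

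Mitochondrial fatty acid oxidation had 1 tested gene of 22, Acadvl, the very-long-chain acyl-CoA dehydrogenase, with a difference of 0.038. Among 23 genes of peroxisomal fatty acid handling and ACBD5 contacts, 4 were tested. Pex19, an import receptor for peroxisomal membrane proteins, differed by -0.28, Abcd3, an acyl-CoA transporter, by 0.088, Pex11a by 0.071 and Acox2 by -0.021. KO and WT arrays overlapped for each of these 4, but the KO arrays disagreed for some. Pex19 read 9.05 on KO replicate 1, above all WT arrays, and 7.74 on KO replicate 3, below all of them. Pex11a read 7.73 on KO replicate 1, above all WT arrays, and 7.28 on KO replicate 3, just below them. Abcd3 read 8.62 on KO replicate 1, above all WT arrays, and 7.25 on KO replicate 3, inside the WT range. Relative to the median of all tested probes, Acadvl lay above it on all 8 scales by 0.013 to 0.081, and the other 4 changed sides.

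Among the partners of ACBD3 and ACBD6, 3 of 11 genes were tested. Prkar1a, the protein kinase A subunit that ACBD3 binds, differed by 0.17 and the Golgi matrix gene Golga2 by 0.22, with 0.067 on its second probe. Tbc1d22a differed by -0.13. Relative to the all-probe median of each scale, Prkar1a ran from -0.83 to 0.19 and Golga2 from 0.019 to 0.22, while Tbc1d22a was below it on all 8.

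Of 17 genes for TSPO partners and mitochondrial cholesterol handling, 5 were tested. Vdac1, the outer membrane channel that TSPO associates with, read 9.83, 10.24 and 10.09 in WT and 10.02 and 10.11 in KO, a difference of 0.010 with overlapping groups, and its second tested probe differed by 0.18. Its paralog Vdac3 differed by 0.28 and Slc25a4, the adenine nucleotide carrier, by -0.36. Stard3, detected on 1 WT array and 1 KO array only, differed by 0.083. Hsd3b2 differed by 0.0045 on its brightest probe and by -0.17 on its second. Relative to the all-probe median of each scale, Vdac1 ran from -1.47 to 0.62, Vdac3 was above it on all 8 and Slc25a4 below it on all 8. Vdac3 was above background on 1 WT array only, where it read 7.21, beside 7.06 and 6.97 on the other WT arrays.

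The GABA-A receptor subunits, targets of the endozepines, were tested for 3 of 11 genes. Gabrb2 differed by -0.32 and Gabrd, detected on the 3 WT arrays and 1 KO array, by -0.12. Gabra3 was detected on 2 WT arrays and on neither KO array, so no fold is given for it. The KO and WT arrays overlapped for each, and Gabrb2 and Gabrd lay below the all-probe median on all 8 scales. Gabra3 forms receptors that respond to benzodiazepines, while receptors with the delta subunit of Gabrd do not.

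Fatty acid and sterol synthesis, whose genes are regulated by the transcription factor SREBP, as the human homolog of Dbi is, was tested for 4 of 28 genes. Scd2, the brain stearoyl-CoA desaturase, read 7.17, 7.41 and 7.11 in WT and 7.75 and 7.54 in KO, a difference of 0.41 (limma adjusted p = 0.801). It was the single gene of the 29 with an unadjusted p under 0.05, and it lay above the all-probe median on all 8 scales, by 0.14 to 0.45. Lss (0.066), Fads1 (0.052) and Fads2 (0.042) lay near 0. Of 20 genes for ceramide and glycerolipid synthesis 4 were tested: Cers6 differed by 0.18, Sptlc2 by 0.11, Agpat4 by 0.089 and Degs1 by -0.14. Of these, Cers6 and Sptlc2 lay above the all-probe median on all 8 scales and Degs1 below it on all 8. Sptlc2 was detected on 1 WT array and both KO arrays, so it was tested only through the KO arrays. Degs1 was detected on 1 WT array and 1 KO array only, so its difference rests mostly on readings not above background.

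**Figure D4:**
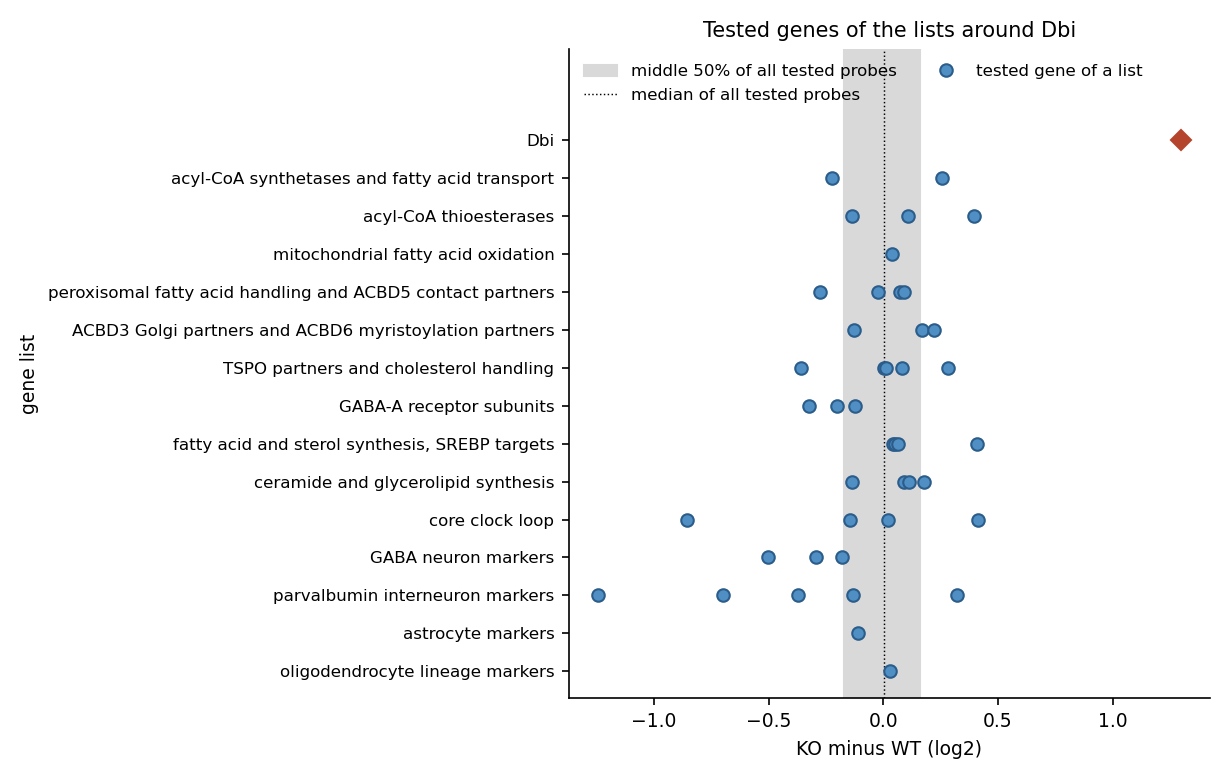
KO minus WT difference (x axis, log2, background correction and quantile normalization) of the brightest tested probe of each gene in 14 lists (y axis), with Dbi as a red diamond. The grey band spans the middle 50% of all tested probes (-0.17 to 0.16); the list genes lie between -1.24 (Pvalb) and 0.41, and Dbi at 1.30. Gabra3 and Aldh1l1 are drawn at their measured values, although neither was detected on a KO array.

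Markers of the cell types best known for Dbi were, with 1 exception, not above background. Of 12 astrocyte markers 11 were detected on no array, among them Gfap, Aqp4, Slc1a3, Slc1a2, Aldoc and Gja1. Aldh1l1 was detected on the 3 WT arrays and on neither KO array, so no fold is given for it. It read 7.17, 7.25 and 7.31 in WT and 7.10 and 7.18 in KO, and the groups overlapped. The summed linear intensity of the 12 was 1211 to 1223 in WT and 1193 to 1226 in KO. None of the 3 ependymal markers on the array was detected, with summed levels of 303 to 314 in WT and 307 to 313 in KO.

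Of the other types, 0 of 9 microglia markers, 0 of 6 excitatory neuron markers, 1 of 10 oligodendrocyte lineage markers (Mbp) and 0 of 10 endothelial and mural markers were tested. Their summed levels were 892 to 909, 562 to 600, 1040 to 1094 and 1048 to 1097 in WT, and 902 to 905, 567 to 584, 1073 to 1082 and 1052 to 1077 in KO. These sums, like the astrocyte and ependymal ones, come mostly from probes not above background, so they set no level for these cell types.

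The markers of the sorted cells had their lowest summed levels on KO replicate 3. All 3 GABA neuron markers on the array (Gad1, Gad2, Slc32a1) were detected on all 5 arrays, and 5 of 6 parvalbumin interneuron markers were tested. The summed level of the 6 was 2103 to 2410 in WT, 1924 on KO replicate 1 and 1434 on KO replicate 3, and that of the 3 GABA neuron markers was 1856 to 2083 in WT, 1909 on KO replicate 1 and 1298 on KO replicate 3. Pvalb read 8.88, 9.18 and 8.79 in WT and 8.22 and 7.19 in KO, a difference of -1.24 (limma adjusted p = 0.801). It was not above background on KO replicate 3, where Dbi was highest on the same scale. Signs differed within the list. Cplx1 differed by -0.70 and Cox6a2 by -0.37, while Kcnc2 differed by -0.13 on its brightest probe and by -0.72 and -0.37 on its other tested probes. Cplx1 read 9.64, 9.62 and 9.31 in WT, 9.29 on KO replicate 1 and 8.36 on KO replicate 3. Cox6a2 read 7.56, 7.38 and 7.37 in WT, 7.31 on KO replicate 1 and 6.81 on KO replicate 3, and was detected on 1 KO array. For both genes KO replicate 1 lay just below the WT arrays. Vamp1 differed by 0.32 on its brightest probe and by -0.05 on its second. Whether these levels bear on the Dbi values was not tested.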

How the data were processed

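The 5 samples were grouped as WT or KO by their titles. The deposited table of raw values gives an intensity per probe on a linear scale, not normalized, and the authors deposited a detection p-value beside each. A second deposited table holds the authors' processed intensity values (-1132 to 18094, medians from -2.00 to -0.10), in the same rank order as the raw ones on each array. How it was made is not given in the sources used here. GenomeStudio is named per the submitters' processing notes, with no version.

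Gene names came from the platform annotation (34885 of 45281 probes with 1 symbol, 18 with several, 10378 with none), updated through Entrez numbers to RefSeq for 34807 probes. In R 4.3.3, neqc of limma 3.58.1 corrected the raw intensities for background (normexp, using the detection p-values), added an offset of 16, applied quantile normalization and took log2. Probes detected at p under 0.05 on at least 2 arrays (3347) entered lmFit and eBayes, and two-sided p-values were adjusted over all of them (Benjamini-Hochberg); the fit was tested on simulated data. Genes in lists are given by their brightest tested probe. The members and lists were chosen with earlier results of these data known. Named were all member probes, Clock, Pvalb, Gad1 and Gad2, at most 6 tested genes of smallest p per list, and the 5 nearest to Dbi in pattern. Each fit was repeated with other background correction, scaling, offset, filters, variance model and array weights, on the authors' values, with the replicate block and without each array. Promoter, protein and probe sequences are not reported here.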

Additional observations from a re-analysis of the deposited data

How the results depend on the processing

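The Dbi difference of 1.30 stayed above 0 in 21 of 22 alternatives and moved by less than the pooled SD between replicates (0.50) in 17. These counts overstate its stability, since the alternatives are not independent. Changes of the probe filter act after normalization, so they could not move it and gave 1.30 again. The replicate block gave 1.56, the same value as leaving out WT replicate 2 with the values kept. It was 0.42 without background correction, 0.52 with cyclic loess, 0.15 with raw signal over the array median and 0.19 with raw signal over the lowest detected signal, the last 2 chosen after seeing the data. It was -0.44 under median scaling, where the median of all tested probes was -0.39; the cause was not tested. Offset 50 gave 1.17, the authors' processed values 0.89 and array weights 0.98. Leaving out 1 array gave 0.84 to 1.61 with the rest normalised anew and 0.97 to 1.56 with the values kept.

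The count of probes called stayed at 0 in 18 of 19 alternatives, and leaving out 1 array gave 0 to 27, the 27 without KO replicate 1, where KO replicate 3 stood alone and was assumed to vary like WT. At an unadjusted p under 0.05, 101 probes were higher and 97 lower in KO. The authors' processed values gave 62 and 123, uncorrected background 70 and 128, cyclic loess 3 and 3, median scaling 0 and 23, raw signal over the array median 0 and 351, and over the lowest detected signal 4 and 118. A per-probe pooled-variance test gave 157 such probes and called 0.

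With the replicate number as a block 0 probes were called, with 178 at an unadjusted p under 0.05, and Dbi differed by 1.56. Deviations from the group mean correlated at 0.20 between the arrays numbered 1 and at 0.13 between those numbered 3. With 2 KO arrays, the KO deviations mirror each other, so the crossed pairs give -0.20 and -0.13 by construction. These correlations are thus not separate evidence on pairing. The labels do not say what the numbers mean; WT replicate 1 and KO replicate 1 also share an age of 61 days, and 2 pairs cannot settle whether the numbers pair the samples. Signal over background limits everything here: 14 of the 15 member probes were above background on fewer than 2 arrays.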
